A study of Solanum lycopersicum x Solanum pennellii and Solanum lycopersicum and Solanum pennellii with 305 samples.

Results

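The 5 genes described here are tomato transcription factors of the GRAS family, known for patterning roots and keeping meristems active. They were taken by identifier from the 29633 genes of the deposited count table. They are SHORT-ROOT (SHR, Solyc02g092370, chromosome 2), SCARECROW (SCR, Solyc10g074680, chromosome 10), LATERAL SUPPRESSOR (LS, Solyc07g066250, chromosome 7) and a pair of HAIRY MERISTEM genes, here called HAM-chr1 (Solyc01g090950, chromosome 1) and HAM-chr8 (Solyc08g078800, chromosome 8). All 5 were in the table and all 5 passed the filter on low counts, which left 19591 genes for testing.

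The data are RNA-seq counts from root tips of the tomato cultivar Solanum lycopersicum cv. M82, of its wild relative S. pennellii (LA0716), and of 75 introgression lines (ILs), each of which carries a segment of the S. pennellii genome in an M82 background. No treatment was applied and seedlings of every genotype were grown on the same medium. Each library was made from the last 1 cm of a pool of 7 to 14 root tips, collected 3 to 4 days after germination. M82 had 4 libraries, S. pennellii had 3, IL7-5 and IL9-1-2 had 3 each, and all other ILs had 4. The libraries of 1 replicate number came from the same growth cycle, per the study's methods. All 75 comparisons with M82 share its 4 libraries and are therefore not independent of each other.

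GRAS proteins regulate transcription and mostly act in complexes. In Arabidopsis roots, SHR protein moves from the central vascular tissue into the adjacent cell layer, where it acts with SCR to set the division that separates endodermis from cortex, and SCR is also needed in the quiescent centre of the root meristem. HAM proteins maintain meristems of shoot and root in an undifferentiated state in Arabidopsis. LS was identified in tomato as a gene needed to form side shoots, and is thus best known from shoot rather than root tissue.

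Library totals ranged from 3078847 to 4835467 reads in M82, from 4174630 to 5659441 in S. pennellii and from 683199 to 11338423 in the ILs (median 4286682). Levels are given as CPM (mapped reads of the gene, scaled to a common library size by TMM). CPM is not corrected for gene length, so levels are compared between genotypes and not between genes. All 4 root marker genes were in the table, but the iron-deficiency genes IRT1 and FRO1 were low, with 118 and 188 libraries at 0 reads. The summed level of the root markers was 595 to 669 CPM in M82, 516 to 638 in S. pennellii and 360 to 1150 in the ILs. Of the 5 genes listed as markers of green tissue, 3 were in the table and their summed level was 15.9 to 19.4 CPM in M82, at most 39.4 in S. pennellii and 2.26 to 63.6 in the ILs. In whole root tips, fewer cells of a type and less RNA per cell cannot be told apart.

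The first comparison asked whether any of the 5 genes differed between the parents. 2 of the 5 genes passed the test in S. pennellii against M82 (edgeR's quasi-likelihood test, Benjamini-Hochberg adjusted p of at most 0.01, the threshold used throughout): LS was higher and HAM-chr1 was lower. The test called 35.6% of all genes in this comparison, 17.8% higher and 17.9% lower, so the count of 2 is near the share among all genes. The study's methods describe mapping references for the ILs and do not spell out that of S. pennellii. The part of the reference in any difference between the parents was not tested.

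HAM-chr1 had levels of 127, 130, 128 and 127 CPM in the 4 M82 libraries. In the 3 S. pennellii libraries it had 81.8, 90.6 and 98.2 CPM. No S. pennellii library reached the lowest M82 library. The log2 fold change was -0.51 (SE 0.13, edgeR adjusted p = 3.3e-04), a level 29.6% below M82. The exact permutation test on this gene alone gave p = 0.0571 (two-sided), the smallest that 3 against 4 libraries allow.

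HAM-chr8, the second HAM gene, pointed the same way without passing the test. Its levels were 92.2, 98.8, 82.7 and 84.5 CPM in M82. In S. pennellii they were 64.6, 72.7 and 77.8 CPM, below every M82 library. The log2 fold change was -0.32 (SE 0.11, 95% interval -0.54 to -0.09, edgeR adjusted p = 0.015). Without replicate 1 of S. pennellii and the ILs it was -0.20 (edgeR adjusted p = 0.20).

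LS was close to the detection limit in M82, with 6, 1, 1 and 5 reads in the 4 libraries, or 1.92, 0.199, 0.274 and 1.05 CPM. S. pennellii had 7, 21 and 16 reads, or 1.65, 4.14 and 2.65 CPM. The groups overlapped, since M82 replicate 1 exceeded S. pennellii replicate 1. The log2 fold change was 1.82 (SE 0.49, 95% interval 0.86 to 2.78, edgeR adjusted p = 9.4e-04), or 3.54-fold, from 13 reads in all of M82 and 44 in S. pennellii. The exact permutation test on this gene alone gave p = 0.114 (two-sided, smallest possible 0.0571). The call was lost without M82 replicate 2 (log2 fold change 1.43, edgeR adjusted p = 0.016). It was also lost without replicate 3 of S. pennellii and the ILs (1.47, edgeR adjusted p = 0.024).

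SHR and SCR did not pass the test between the parents. SHR had 36.8, 38.8, 31.5 and 30.7 CPM in M82 and 20.5, 29.4 and 34.2 CPM in S. pennellii, where replicate 1 was the lowest of the 7 and replicate 4 lay within the M82 range. Its log2 fold change was -0.29 (SE 0.14, 95% interval -0.55 to -0.02, edgeR adjusted p = 0.075). Without replicate 1 of S. pennellii and the ILs it was -0.06 (edgeR adjusted p = 0.76). SCR had 34.3, 29.4, 44.6 and 38.5 CPM in M82 and 29.5, 35.7 and 39.5 CPM in S. pennellii, so that the S. pennellii libraries lay inside the M82 range. Its log2 fold change was -0.06 (SE 0.18, 95% interval -0.41 to 0.28, edgeR adjusted p = 0.79).

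**Figure D1:**
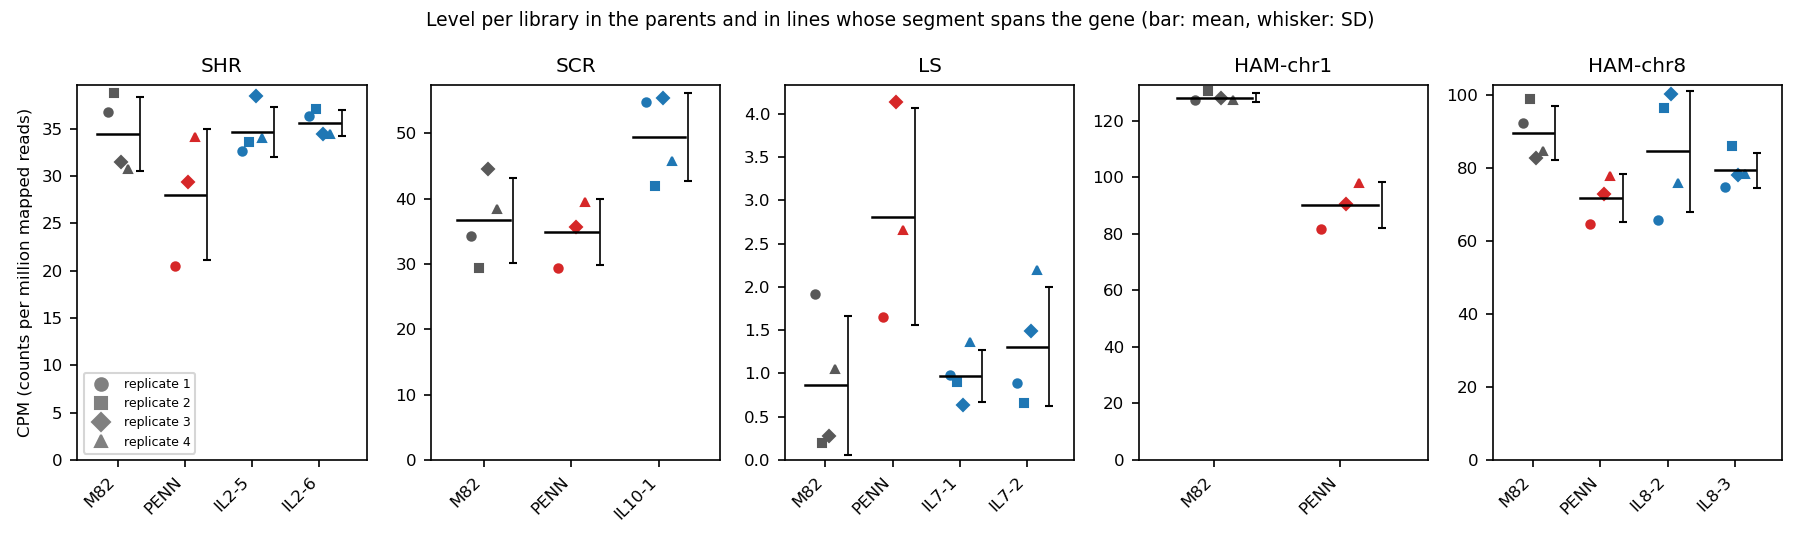
Level of each gene in CPM (vertical axes, from 0) in every library of M82 (grey), S. pennellii (labelled PENN, red) and the ILs whose introgressed segment spans the gene (blue). Symbols give the replicate number, horizontal bars the genotype mean and whiskers the SD. SCR in IL10-1 reached 41.9 to 55.4 CPM, and HAM-chr1 in S. pennellii stayed at or below 98.2 CPM against at least 127 in M82.

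The next comparison asked whether any IL differed from M82. None of the 5 genes passed the test in any of the 75 ILs, that is in 0 of 375 tests by edgeR, while 1.47% of the tests of all genes over the 75 ILs did. At an unadjusted p under 0.05 there were 32 of the 375 (8.5%), beside 10.7% of the tests of all genes. DESeq2 and edgeR, each run on 1 genotype with M82 alone, made 0 calls among the 300 tests of SHR, SCR and the HAM genes, while LS did not pass the filter of those fits and was not tested there. This count was not set against the share of all genes called in those fits. The 32 were 1 for SHR, 3 for SCR, 15 for LS, 4 for HAM-chr1 and 9 for HAM-chr8.

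The precision of these comparisons differed between the genes. With the median SE, a 95% interval around no change reached 1.18-fold for SHR, 1.25-fold for SCR, 1.17-fold for HAM-chr1 and 1.15-fold for HAM-chr8. For LS it reached 2.19-fold. These limits are unadjusted, and at the threshold used here larger changes were needed, as LS in IL6-1 shows with a log2 fold change of 1.65 that did not pass.

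SHR, whose protein carries the patterning signal outward from the vascular tissue in Arabidopsis, varied little among the ILs. Its line means ran from 29.4 to 41.9 CPM (median 36.1), and all 75 lay above the S. pennellii mean (28.0 CPM ± 6.93, n = 3). The lowest were IL2-3 (29.4 CPM ± 3.43, SD, n = 4), IL4-4 (30.2 ± 5.44, n = 4) and IL3-2 (30.6 ± 5.94, n = 4). The highest were IL1-4-18 (41.9 CPM ± 2.98, n = 4), IL9-3-2 (40.4 ± 6.05, n = 4) and IL9-2-5 (39.8 ± 2.64, n = 4). No neighbours in the order of the 75 means were further apart than the SD within the lines concerned.

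The SD of the SHR line means was 0.10 on the log2 scale, and 4.7% of the 14770 genes with a mean of at least 5 CPM had a smaller one (median over these genes 0.18). The difference among the 75 ILs did not pass the test (edgeR adjusted p = 0.18), in a test that called 70.8% of all genes.

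SCR, the partner of SHR in the endodermis, had line means from 27.7 to 49.4 CPM (median 34.8). IL10-1 stood at the top with 54.8, 41.9, 55.4 and 45.7 CPM in its 4 libraries, a mean of 49.4 ± 6.71. The next were IL1-1-2 (41.1 CPM ± 4.72, n = 4) and IL1-1-3 (40.8 ± 3.29, n = 4). The gap of 8.33 CPM between IL10-1 and IL1-1-2 was the only gap among 74 neighbouring pairs that exceeded the SD of the pair (5.80 CPM).

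The lowest SCR means were those of IL7-5 (27.7 CPM ± 5.39, n = 3), IL10-3 (27.9 ± 3.55, n = 4) and IL4-4 (29.1 ± 3.42, n = 4). The difference among the 75 ILs did not pass the test for SCR (edgeR adjusted p = 0.081). It did pass with the replicate number as a block (edgeR adjusted p = 0.0045, with 80.8% of all genes called), and replicate 1 libraries were on average 0.15 lower than their genotype means on the log2 scale. The SD of its line means, 0.14 on the log2 scale, was larger than that of 27.0% of the genes at 5 CPM or more.

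LS, the side-shoot gene, was low in every genotype, with a median of 5 reads per library and 9 libraries without a read. At 0 reads, the 3 counts that such a library allows corresponded to 0.573 to 4.05 CPM, a limit that covers counting error only. Line means ran from 0.239 to 2.53 CPM (median 1.104), and all 75 lay below the S. pennellii mean of 2.81 CPM. The difference among the 75 ILs passed the test (edgeR adjusted p = 2.5e-07), as it did for 70.8% of all genes.

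The highest LS means were in IL6-1, IL3-2 and IL9-3-1, with 51, 35 and 23 reads over 4 libraries each. IL6-1 had 1.58, 4.07, 2.04 and 2.44 CPM, of which 1 library lay below the highest M82 library. Against M82 its log2 fold change was 1.65 (SE 0.48, edgeR adjusted p = 0.017), just outside the threshold. With single replicates left out it ranged from 1.26 (without M82 replicate 2, edgeR adjusted p = 0.15) to 2.23 (without M82 replicate 1, edgeR adjusted p = 0.0043), and only the latter passed. The lowest means were in IL5-5, IL5-4 and IL12-3-1, with 4, 6 and 6 reads in total.

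HAM-chr1 had line means from 106 to 145 CPM (median 126), and all 75 lay above the S. pennellii mean of 90.2 CPM ± 8.21 (n = 3). IL4-3 was highest (145 CPM ± 4.104, n = 4), followed by IL3-5 (141 ± 11.23, n = 4) and IL12-1 (138 ± 9.90, n = 4). The lowest means were those of IL7-3 (106 CPM ± 29.6, n = 4), IL2-3 (107 ± 22.1, n = 4) and IL9-1-3 (107 ± 28.9, n = 4). The libraries of these 3 lines were uneven, with 63.3 to 128 CPM in IL7-3, 78.9 to 125.5 in IL2-3 and 65.3 to 132 in IL9-1-3. The difference among the 75 ILs was just inside the threshold (edgeR adjusted p = 0.0091). It was lost when any 1 replicate number was left out (edgeR adjusted p from 0.020 to 0.20).

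HAM-chr8 had line means from 74.3 to 110 CPM (median 89.2), and all 75 lay above the S. pennellii mean of 71.7 CPM ± 6.66 (n = 3). Of the 4 genes above a mean of 5 CPM it had the smallest adjusted p for a difference among the 75 ILs (edgeR adjusted p = 1.2e-09), and leaving out any replicate number kept it at or below 2.3e-04. The lines IL9-3-1 (107 CPM ± 10.9, n = 4) and IL3-4 (106 ± 2.02, n = 4) were among the highest. IL8-2-1 (75.9 ± 5.01, n = 4) and IL11-2 (76.2 ± 6.95, n = 4) were among the lowest. These line means spread over a range of 1.48-fold, from lowest to highest.

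At the upper end, IL12-3 had 120, 127, 90.2 and 103 CPM of HAM-chr8. Its first 2 libraries exceeded every library of the other ILs with the same replicate number, whereas the third lay in the middle, with 37 of 73 other lines above it. Against M82 the log2 fold change was 0.29 (SE 0.11, edgeR unadjusted p = 0.0065, adjusted p = 0.029). In this line 15.5% of all genes were called against M82, and the adjusted p depends on that share. With single replicates left out the fold change ranged from 0.21 (without replicate 2 of the lines, edgeR adjusted p = 0.17) to 0.38 (without replicate 3, edgeR adjusted p = 0.0092). Only the latter passed. With this line and M82 alone the adjusted p was 0.13 by DESeq2 and 0.12 by edgeR. At the lower end, IL9-1-3 had 75.5, 69.2, 70.6 and 81.9 CPM, all below the lowest M82 library of 82.7 CPM. Its log2 fold change was -0.27 (SE 0.11, edgeR adjusted p = 0.12).

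Measured against the mean of all ILs of other chromosomes in place of M82, 4 of the 375 tests passed, beside 3.12% of the tests of all genes. SCR was higher in IL10-1 (log2 difference 0.51, SE 0.11, edgeR adjusted p = 9.1e-04). HAM-chr8 was higher in IL12-3 (0.29, SE 0.08, edgeR adjusted p = 9.5e-04) and lower in IL9-1-3 (-0.27, SE 0.08, edgeR adjusted p = 0.0082). LS was higher in IL6-1 (1.22, SE 0.26, edgeR adjusted p = 8.4e-05). At an unadjusted p under 0.05 there were 6 ILs each for SHR, SCR and HAM-chr1, 15 for LS and 20 for HAM-chr8 out of 75, beside 13.9% of the tests of all genes. With the replicate number as a block, 10 of the 375 tests passed, beside 3.89% of the tests of all genes. These were the 4 above and 6 further ones, in which SHR was lower in IL2-3 (-0.30) and IL4-4 (-0.26), HAM-chr8 was higher in IL3-5 (0.23) and IL9-3-1 (0.25), and LS was higher in IL2-4 (1.04) and IL9-2-6 (0.97), with edgeR adjusted p from 0.0051 to 0.0082. S. pennellii set against the ILs in the same way differed in 4 of the 5 genes, beside 41.0% of all genes. SHR (-0.36, edgeR adjusted p = 0.0019) and HAM-chr8 (-0.32, edgeR adjusted p = 8.0e-04), which had not passed against M82, were lower, as was HAM-chr1, and LS was higher. Without replicate 1 of S. pennellii and the ILs, SHR (-0.15, edgeR adjusted p = 0.30) and HAM-chr8 (-0.21, edgeR adjusted p = 0.082) no longer passed. SHR without replicate 3 (-0.39) and HAM-chr8 without replicate 4 (-0.33, edgeR adjusted p = 0.012) were also just outside the threshold, whereas HAM-chr1 and LS passed without any 1 replicate. Each of the 4 line calls in this comparison was lost in at least 1 such omission, for SCR in IL10-1 without replicate 1, 3 or 4 (0.41 to 0.57, edgeR adjusted p from 0.010 to 0.054), for HAM-chr8 in IL12-3 without replicate 1 or 2 (0.22 and 0.23) and in IL9-1-3 without replicate 2 or 3 (-0.22 and -0.25), and for LS in IL6-1 without replicate 2 (0.95).

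**Figure D2:**
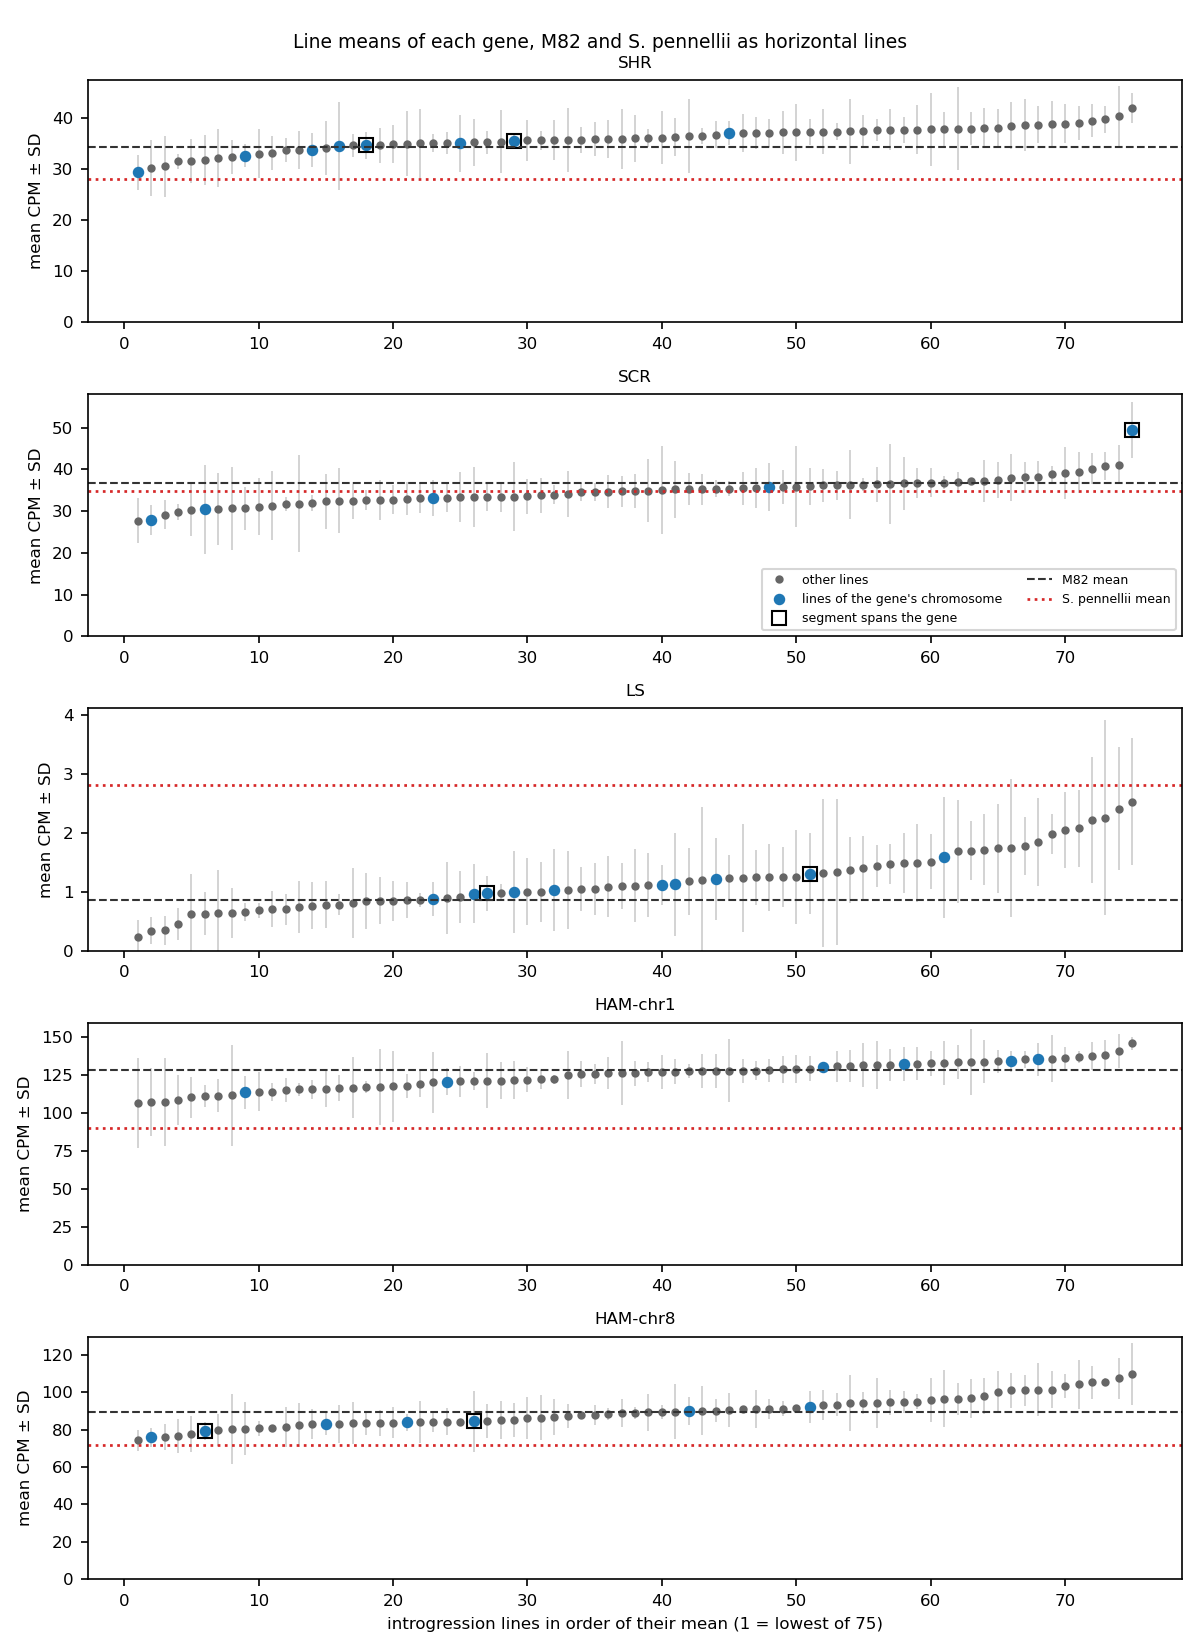
Mean level in CPM (vertical axes, from 0, whiskers SD) of the 75 ILs in ascending order of their mean, 1 panel per gene. Blue points are ILs of the chromosome that holds the gene, squares are ILs whose segment spans it, and lines give the means of M82 (dashed) and S. pennellii (dotted). IL10-1 stands alone at the top for SCR, and S. pennellii lies below all 75 ILs for SHR and both HAM genes and above all 75 for LS.

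The ILs also allow each gene to be compared between lines whose S. pennellii segment spans it and the other lines. Spanning lines carry a whole segment, so the copy of the gene itself cannot be told apart from the rest of the segment. A line was counted as spanning a gene when the gene lay, in identifier order, between the first and the last gene that the authors labelled cis in that line. By this rule IL2-5 and IL2-6 spanned SHR, IL10-1 spanned SCR, IL7-1 and IL7-2 spanned LS, and IL8-2 and IL8-3 spanned HAM-chr8. None of the 6 chromosome 1 lines analysed spanned HAM-chr1. For genes inside a segment the mapping reference was S. pennellii sequence, and the part of the reference in any difference was not tested.

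SCR was the only 1 of the 4 genes with spanning lines that passed the test between spanning lines and other lines. IL10-1, the single spanning line, had a mean of 49.4 CPM against 34.5 CPM in the other 74 lines (SD of line means 2.87). The log2 difference was 0.52 (SE 0.11, edgeR adjusted p = 2.9e-04), and this contrast called 1.44% of all genes. The call was lost without replicate 3 of the lines (0.49, edgeR adjusted p = 0.026). The segment of IL10-1 held 249 genes labelled cis. With a single spanning line, the SCR copy cannot be told apart from the rest of that segment or from other features of the line.

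Within replicate numbers, IL10-1 was above all other ILs in replicates 1, 3 and 4, and 3 of 73 were above it in replicate 2. In each replicate it was also above the M82 library of the same number, which had 34.3, 29.4, 44.6 and 38.5 CPM. Against M82, however, the log2 fold change of 0.44 (SE 0.16, edgeR unadjusted p = 0.0075) did not pass over all genes (edgeR adjusted p = 0.28, with 0.791% of all genes called). The exact permutation test on this gene alone, run because its values had been seen, gave p = 0.0571 (two-sided, 4 against 4 libraries, smallest possible 0.0286). It did not use the pairing by replicate number.

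The SCR libraries of IL10-1 did not overlap those of S. pennellii, since the lowest IL10-1 library (41.9 CPM) was above the highest S. pennellii library (39.5 CPM). The log2 difference between them was 0.50 (SE 0.17, 95% interval 0.16 to 0.84), just outside the threshold (edgeR adjusted p = 0.011, with 37.4% of all genes called), and the exact permutation test gave p = 0.0571 (two-sided), the smallest that 4 against 3 libraries allow. Both tests were chosen with the values seen. The other 4 chromosome 10 lines, whose segments did not span SCR, had means of 30.4 CPM in IL10-1-1, 33.2 in IL10-2, 35.7 in IL10-2-2 and 27.9 in IL10-3. Their ranks from the lowest were 6, 23, 48 and 2 of 75. IL10-1-1 was uneven, with 15.2 CPM in replicate 1 and 33.2, 39.9 and 33.4 CPM in the others. The 5 chromosome 10 lines together therefore differed from the rest by a log2 value of 0.00 (SE 0.06, edgeR adjusted p = 1.0, with 3.09% of all genes called).

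The marker levels of IL10-1 lay below those of M82, as did the medians over the IL libraries. In IL10-1 the summed green tissue markers were 4.64 to 14.7 CPM (median 7.64), below every M82 library. The summed root markers were 463 to 594 CPM (median 522), also below every M82 library. Over the IL libraries the medians were 12.6 CPM for green tissue and 568 CPM for root markers. The IL values include the IL10-1 libraries, so the range over the ILs cannot show whether IL10-1 was unusual. The part of the markers in the SCR level was not tested. In IL10-1, 0.791% of all genes were called against M82.

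SHR in its spanning lines was at the level of the rest. IL2-5 had 32.6, 33.6, 38.5 and 34.0 CPM and IL2-6 had 36.4, 37.1, 34.5 and 34.4 CPM, all inside the range of the M82 libraries. The log2 difference from the other 73 lines was -0.03 (SE 0.06, 95% interval -0.16 to 0.09, edgeR adjusted p = 0.83, with 2.96% of all genes called). The 8 chromosome 2 lines together were lower by a log2 value of -0.08 (SE 0.03), which did not pass (edgeR adjusted p = 0.050, with 15.8% of all genes called), and included the lowest of all lines, IL2-3, whose segment ended before SHR.

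LS in its spanning lines was at 0.973 CPM ± 0.302 in IL7-1 and 1.31 ± 0.688 in IL7-2 (SD, n = 4 each), against a mean of 1.18 CPM in the other 73 lines. The log2 difference was 0.06 (SE 0.25, 95% interval -0.43 to 0.56, edgeR adjusted p = 0.95, with 3.64% of all genes called). S. pennellii had a mean of 2.81 CPM, and M82 had 0.861 CPM ± 0.805 (n = 4). All 4 libraries of IL7-1 were below the lowest S. pennellii library (1.65 CPM), whereas IL7-2 overlapped S. pennellii, with 2.195 CPM in replicate 4. The spanning lines were not tested against S. pennellii.

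HAM-chr8 in its spanning lines was on the low side of the ILs without passing the test. IL8-3 had 74.8, 86.0, 77.9 and 78.2 CPM. IL8-2 was uneven, with 65.6, 96.3, 100 and 75.8 CPM. The log2 difference from the other 73 lines was -0.13 (SE 0.05, 95% interval -0.23 to -0.02, edgeR adjusted p = 0.22, with 2.39% of all genes called).

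All 7 chromosome 8 lines together differed from the rest by -0.10 (SE 0.03, edgeR adjusted p = 0.017, with 5.9% of all genes called), also outside the threshold. The lowest of these was IL8-2-1, with 79.1, 80.2, 69.1 and 75.4 CPM. Its last cis gene, Solyc08g078130, came shortly before HAM-chr8 in identifier order, so it was not counted as a spanning line, although the boundary is known only to the nearest labelled gene. HAM-chr1 in the 6 chromosome 1 lines was at a mean of 127 CPM against 124 in the rest (log2 difference 0.04, SE 0.03, edgeR adjusted p = 0.56, with 3.28% of all genes called).

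**Figure D3:**
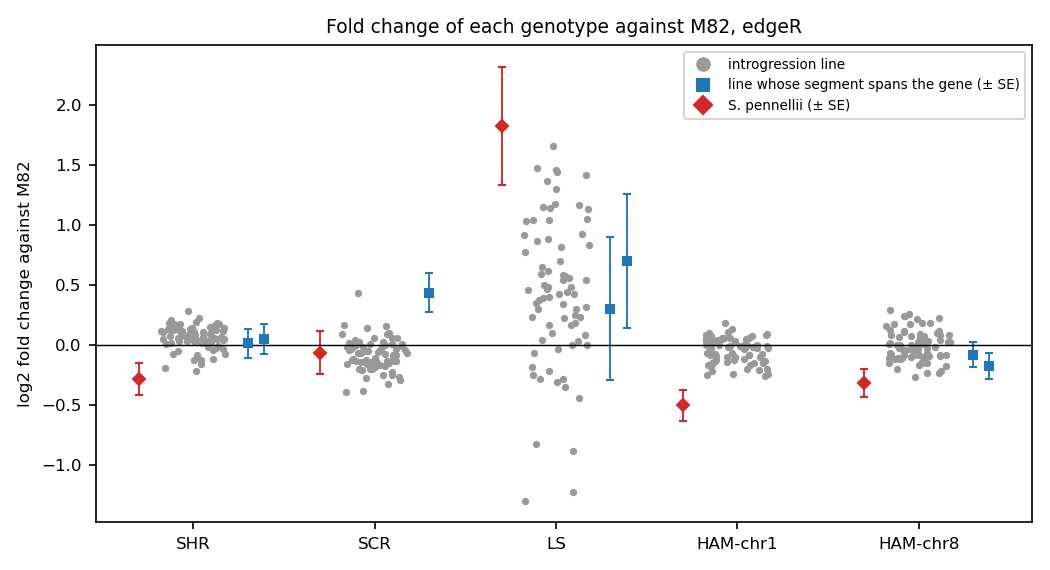
Log2 fold change against M82 (vertical axis) from edgeR for each gene, with 1 grey point per IL, blue squares for ILs whose segment spans the gene and red diamonds for S. pennellii (whiskers SE, grey points placed sideways at random). S. pennellii lies at -0.51 for HAM-chr1 and 1.82 for LS, and the square of SCR at 0.44 is IL10-1.

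How the 5 genes moved together was described over the 75 line means, on the log2 scale. These points share growth cycles, sequencing pools and the scaling of libraries, so the coefficients are descriptions. The HAM genes had a Pearson r of 0.45, SHR and SCR an r of 0.28, and SCR and HAM-chr1 an r of 0.48. SHR and HAM-chr8 had an r of -0.13. Over all libraries, after subtracting genotype means, the corresponding values were 0.36, 0.40, 0.59 and 0.16.

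The ratio of SHR to SCR was lowest in IL10-1, at -0.44 on the log2 scale relative to the median line, and S. pennellii was at -0.37. The ratio of HAM-chr1 to HAM-chr8 was highest in IL8-2-1 (0.33) and lowest in IL4-4 (-0.25), with M82 at 0.04 and S. pennellii at -0.15. Thus M82 lay near the median line in the balance of the HAM genes, where the SD of the line ratios was 0.126. In the balance of SHR to SCR M82 was at -0.14, within the spread of the lines (SD 0.144).

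**Figure D4:**
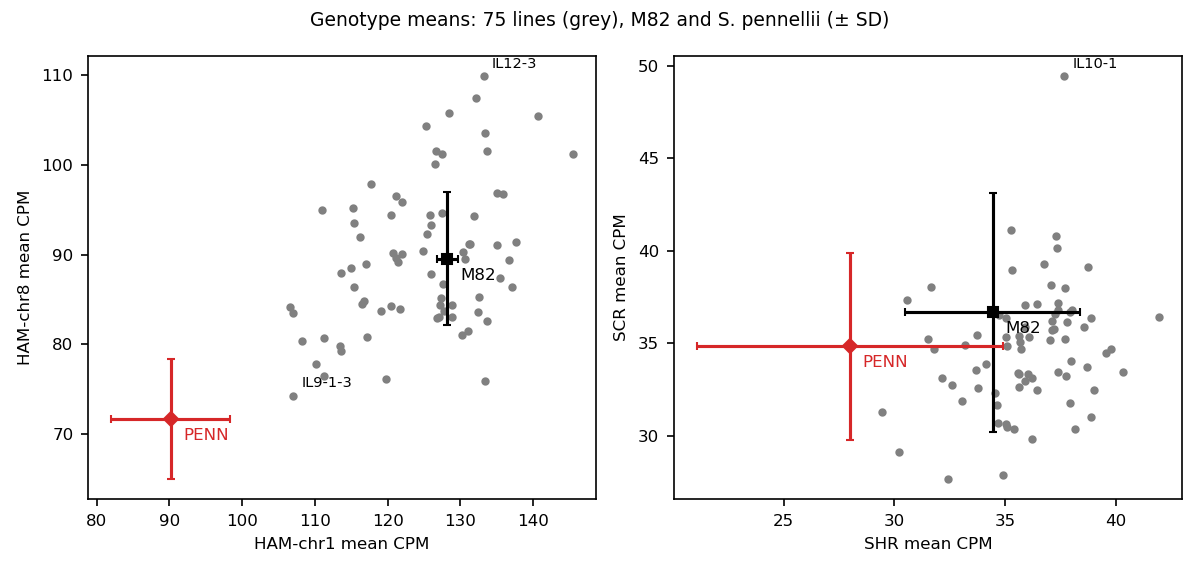
Genotype means in CPM of HAM-chr8 against HAM-chr1 (left) and of SCR against SHR (right), for 75 ILs (grey), M82 (black) and S. pennellii (PENN, red), the parents with SD. Axes do not start at 0. S. pennellii is at the lower left for the HAM genes, at 90.2 and 71.7 CPM, and IL10-1 is the highest point for SCR at 49.4 CPM.

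A pair of functionally related genes was listed beside the 5. PROCERA (Solyc11g011260) encodes the tomato DELLA protein, a GRAS repressor of gibberellin responses. It was lower in S. pennellii, with 74.9, 78.2 and 91.2 CPM against 145, 135, 132 and 115 CPM in M82 (log2 fold change -0.69, SE 0.17, edgeR adjusted p = 2.5e-04, with 35.6% of all genes called). It was also called lower in 2 of the 75 ILs, beside 1.47% of the tests of all genes over the ILs. On each genotype with M82 alone, DESeq2 called 4 and edgeR 1, counts that were not set against a share of all genes. In IL4-4 it had 77.7, 64.7, 76.1 and 86.2 CPM (-0.79, SE 0.16, edgeR adjusted p = 3.9e-05), all below the lowest M82 library, and in IL12-3 it had 79.4 to 98.5 CPM (-0.56, SE 0.16, edgeR adjusted p = 0.0041).

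These lines were among those with many calls, with 20.0% of all genes called against M82 in IL4-4 and 15.5% in IL12-3. The retinoblastoma-related gene RBR1 (Solyc09g091280), whose Arabidopsis counterpart binds SCR protein, was called in 0 of 75 ILs by edgeR, beside 1.47% of the tests of all genes. At an unadjusted p under 0.05 there were 4 ILs for RBR1, beside 10.7% of the tests of all genes. DESeq2 called 0, which was not set against a share of all genes. Its level was 53.0, 58.5 and 57.5 CPM in S. pennellii and 68.2, 66.8, 72.0 and 58.2 CPM in M82 (log2 fold change -0.23, SE 0.14, edgeR adjusted p = 0.17). Over the 75 line means SHR had an r of 0.64 with RBR1 and 0.52 with PROCERA. Over all libraries, after subtracting genotype means, the values were 0.42 and 0.57. Neither SHR nor RBR1 passed the test for a difference among the 75 ILs (edgeR adjusted p = 0.18 and 0.073).

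The genes with the pattern most like each of the 5 were found by the Pearson correlation of mean log2 CPM over the 77 genotypes, among genes with a mean of at least 5 CPM. For SHR the nearest were Solyc03g095680, Solyc06g009780 and Solyc03g044020 (r of 0.73, 0.71 and 0.70). For SCR they were Solyc03g113190, Solyc06g060270 and Solyc10g018520 (0.69, 0.64 and 0.64). For LS they were Solyc02g070130, Solyc03g096390 and Solyc08g007070 (0.65, 0.65 and 0.64).

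The HAM genes had the closest neighbours of the 5. Those of HAM-chr1 were Solyc08g081060, Solyc03g114810 and Solyc06g075420 (r of 0.77 each), and those of HAM-chr8 were Solyc02g069240, Solyc10g080390 and Solyc02g082570 (0.80, 0.77 and 0.77). None of these 15 genes is 1 of the other members, and the files do not pair the identifiers with gene names.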

How the data were processed

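The 50 bp single-end reads were trimmed, mapped with BWA and counted with SAMtools by the authors (versions not stated). The mapping reference of each line held S. pennellii sequence inside the introgression and M82 sequence elsewhere. All tests used the raw read counts that the authors deposited. The authors' TMM-normalized CPM, which they rounded to integers and which are treated as a score, served as a check of levels. Their table of fold changes and p-values was used for its cis labels only. The count table holds 9 further per-sample columns that were left out.

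The analysis used edgeR 4.0.16 in R 4.3.3. After filterByExpr and TMM scaling (factors 0.818 to 1.17), all libraries entered 1 quasi-likelihood fit that had no term besides genotype. P-values were adjusted by the Benjamini-Hochberg method over 19591 genes, separately for each comparison. The replicate block and the reference of lines of other chromosomes used the Wald form of the test, which in the fit without the block made 17951 calls over the 75 lines against M82, where the usual form made 21591. Among the 5 genes, in the comparisons with M82, its p-values differed by up to 0.518 on the log10 scale, and no call differed. None of the 5 genes was called there in any line by the usual form. The forms were not compared for the replicate block or for lines of other chromosomes. The shares of tests called against lines of other chromosomes come from this form, and the other shares from the usual form. Intervals are 1.96 SE. Correlations used log2 CPM with a prior count of 2. Exact permutation tests used scipy 1.17.1 on log2(CPM + 0.5) and exchanged libraries freely between the groups, without the replicate numbers. The fits were checked on simulated data.

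The genes named are the 5 members, each with M82, S. pennellii, spanning lines, called lines, and the 3 highest and 3 lowest lines. The members and lists were chosen with earlier results of these data known. Alternatives were DESeq2 size factors, DESeq2 1.42.0 and edgeR on each genotype with M82 alone, other filters, a threshold of 0.05, the replicate block, other references, the authors' CPM and leaving out replicates. A replicate number was left out either of M82 alone or of all other genotypes together. Replicates of a number were grown and pooled for sequencing together, so the numbers pair the libraries. As a check, the mean correlation of deviations from genotype means was 0.13 for library pairs that share a number and -0.04 for pairs that do not.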

Additional observations from a re-analysis of the deposited data

Results flagged for a closer look

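HAM-chr8 in IL8-1-1 had 105 CPM in replicate 3 (400 reads), against 87.0 to 89.8 CPM in its other 3 libraries, so that 1 library stood far from the rest. IL8-1-1 is a chromosome 8 line whose segment does not span the gene. Among 78 groups of 4 libraries (each of the 5 genes in M82, its named lines, IL4-4, IL12-3 and all lines of its own chromosome, and PROCERA and RBR1 in M82, IL4-4 and IL12-3) this was the only such case, and chance gives about 5% of groups. Over all groups checked there were 26 such cases in 518, near that share.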

How the results depend on the processing

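Of the count of ILs called against M82, which was 0 for each gene, HAM-chr8 had 1 at a threshold of 0.05 and 1 with genes of at least 5 CPM, and 2 against lines of other chromosomes. LS had 1 at a threshold of 0.05 and 1 against lines of other chromosomes, and SCR had 1 in the latter. Against lines of other chromosomes 3.12% of the tests of all genes passed. The counts at a threshold of 0.05 and with genes of at least 5 CPM were not set against a share of all genes. Leaving out replicates gave 0 to 1 for HAM-chr8 and LS. In S. pennellii against M82, HAM-chr8 passed at a threshold of 0.05 (-0.32) and against lines of other chromosomes (-0.32), and SHR passed in the latter only (-0.36). Without single replicates HAM-chr8 was -0.34 to -0.20 and SHR was -0.41 to -0.06. LS ranged from 1.43 to 2.4 without single replicates. SCR changed sign around 0, at 0.00 with DESeq2 size factors, 0.01 with genes of at least 5 CPM, 0.01 against lines of other chromosomes and -0.16 to 0.10 without single replicates. Among the ILs, HAM-chr1 did not pass without a filter on low counts (adjusted p = 0.023) or without any 1 replicate (0.020 to 0.20), and SCR passed with the replicate block (0.0045). For spanning lines, SCR fell to 0.00 when every chromosome 10 line counted as spanning and was 0.42 to 0.58 without single replicates, and LS was -0.25 to 0.21. The cause was not tested. Against lines of other chromosomes the block kept the 4 line calls and raised their number to 10. The block changed no other call among the results recomputed with it. LS is below 5 CPM, so that filter gave no value for it, nor did the fits of 1 genotype with M82 alone. Leaving out replicates and the block in the comparison with lines of other chromosomes, and the contrast of IL10-1 with S. pennellii, were chosen after seeing the data. Low read numbers limit LS, and most lines rest on 4 libraries.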
